A study of Arabidopsis thaliana with 12 samples.

Results

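Leaves of the *ADR1-L2 DV* suppressor lines *sadr1-30.4* and *sadr1-26.6* were compared by mRNA sequencing. The 2 lines account for 6 of the 12 leaf samples in the series, 3 each, chosen by the genotype in their labels, and both carry a missense mutation in the same gene, *SADR1*. All lines other than Col-0 share an *adr1-l2* mutant background and a transgene for ADR1-L2 D484V driven by its native promoter, called *ADR1-L2 DV*. The samples labelled ADR1-L2 D484V 30.4 and ADR1-L2 D484V 26.6 carry the suppressor allele in addition, those labelled ADR1-L2 D484V carry the transgene alone, and Col-0 is the wild type. Each suppressor is a single line from a mutagenized population. What other mutations the lines carried, and the age of the plants, was not stated in the sources used here.

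The product of *ADR1-L2* is a helper NLR (RNL), an intracellular immune receptor acting downstream of many sensor receptors. Sensor receptors with a TIR domain (TNLs) produce small nucleotide signals that are bound by EDS1 with PAD4 or SAG101, and these complexes engage the ADR1 or NRG1 helpers, which form calcium-permeable channels at the plasma membrane. Salicylic acid synthesis and the transcription of *EDS1*, *PAD4* and the *ADR1* genes reinforce each other, so that an activated helper raises the expression of its own pathway. SADR1 is itself a TNL, and its gene lies head to head with that of another TNL, *SADR1-P1*. Comparing both alleles asks how far 2 lesions in one receptor gene leave the same leaf transcriptome.

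The table holds 28496 genes and 1 whole-number value per gene and genotype, treated as reads pooled over the 3 samples of a genotype. Pooled reads totalled 20613029 in *sadr1-30.4* and 20013826 in *sadr1-26.6*, with 21277026 in *ADR1-L2 DV* and 20148132 in Col-0. Because no value per sample was used, the difference between alleles has no replicate check, no SD stands beside a value, and the intervals given are 95% Clopper-Pearson intervals that cover counting error only. A log2 ratio is log2 of *sadr1-30.4* over *sadr1-26.6* after scaling by the median of ratios, with 1 read added to each value. A gene was counted if the higher allele had at least 50 scaled reads, and it was called if the ratio reached 2-fold with an interval that left out 0. The antenna gene *CAB1* had the largest value in all 4 genotypes, while 5 of 8 seed markers and 3 of 7 root markers had 0 reads in both alleles.

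Both alleles gave closely similar leaf transcriptomes, with a small set of genes that differed at least 2-fold. Of 15388 genes counted, 129 were called higher in *sadr1-30.4* (0.838%) and 165 were called lower (1.07%), together 294 genes or 1.91%. The ratio stayed within 1.5-fold for 93.1% of the counted genes, and the quartiles of the log2 ratio were -0.16 and 0.17. Counting intervals left out 0 for 40.4% of the counted genes, so the spread between the alleles was wider than counting error alone. The called genes with the smallest differences were *BGLU43* (log2 ratio 1.02) and *HB-7* (-1.0), and the genes just short of the fold were *PPa2* (0.99) and *GL2* (-0.997). Restricted to the 11051 genes with at least 200 scaled reads in the higher allele, 43 were called higher and 75 lower. In bulk leaves, fewer cells of a type and less RNA per cell cannot be told apart.

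**Figure D1:**
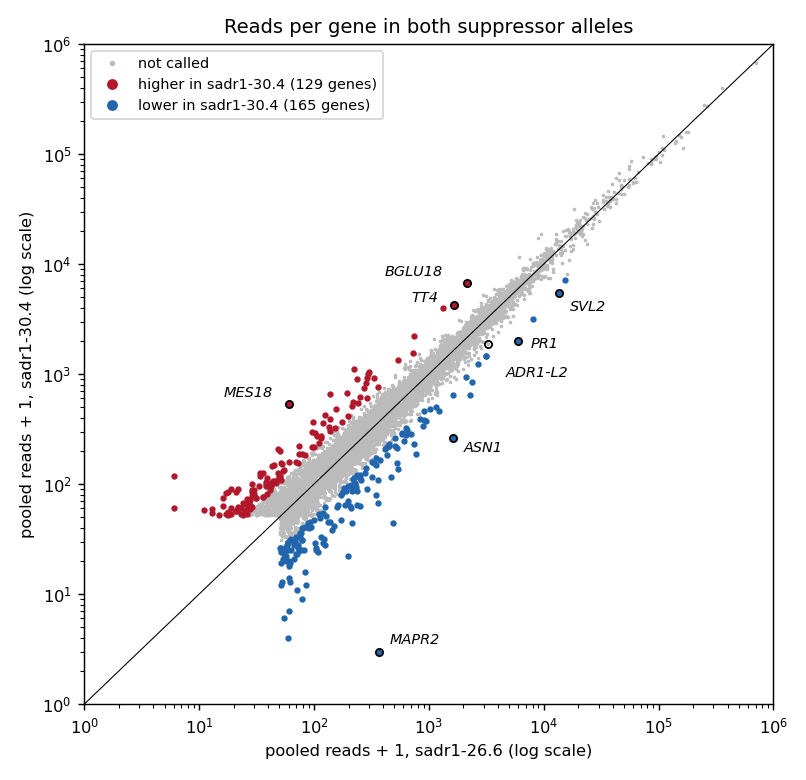
Pooled reads per gene in *sadr1-30.4* (vertical axis) against *sadr1-26.6* (horizontal axis), both as reads + 1 on log scales, for the 15388 counted genes. The 129 genes called higher in *sadr1-30.4* lie above the line of equal reads and the 165 called lower lie below it, with *MAPR2*, at 2 reads in *sadr1-30.4* and 366 in *sadr1-26.6*, as the lowest point.

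The helper receptors and the EDS1 node mostly had ratios below 0, none of them past 2-fold. Of 8 counted members of this list, 0 were called in either direction, 7 had a log2 ratio below 0, and the median was -0.34. Besides helper and EDS1 node genes, those 8 include *SADR1-P1* (-0.10) and the mutated gene *SADR1* (-0.43), both described further below. Over all counted genes the median was -0.0015 and 1.91% were called. The *ADR1-L2* gene (chromosome 5, 1360589 to 1363907, TAIR10.1) had 1855 reads in *sadr1-30.4* and 3254 in *sadr1-26.6*, next to 8543 in *ADR1-L2 DV* and 1148 in Col-0. Its log2 ratio of -0.85 (interval -0.93 to -0.77) was the lowest of the list, and both alleles lay above Col-0. These values add up any reads of the transgene and of the chromosomal gene. *ADR1-L1*, a second helper of the ADR1 family, had 2645 reads in *sadr1-30.4* and 3207 in *sadr1-26.6* (log2 ratio -0.32), next to 7895 in *ADR1-L2 DV* and 2877 in Col-0. *ADR1* was the member with a ratio above 0, at 462 reads in *sadr1-30.4* and 429 in *sadr1-26.6* (0.07, interval -0.13 to 0.26), with 1553 in *ADR1-L2 DV* and 476 in Col-0. For *NRG1.1* and *NRG1.2* no matching entry was used.

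*EDS1* and its lipase-like partners *PAD4* and *SAG101* had ratios below 0 that did not reach 2-fold. *EDS1* had 1501 reads in *sadr1-30.4* and 1814 in *sadr1-26.6* (log2 ratio -0.31, interval -0.41 to -0.21), with 6265 in *ADR1-L2 DV* and 1679 in Col-0. *PAD4* stood at 1866 reads in *sadr1-30.4* and 2594 in *sadr1-26.6* (-0.52, interval -0.60 to -0.43), with 8006 in *ADR1-L2 DV* and 2278 in Col-0. *SAG101* stood at 428 reads in *sadr1-30.4* and 538 in *sadr1-26.6* (-0.37), with 1403 in *ADR1-L2 DV* and 585 in Col-0. For *EDS1* and *PAD4* the Col-0 reads fell between those of both alleles, while for *SAG101* both alleles had fewer reads than Col-0.

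The mutated gene was expressed in both lines. *SADR1* (AT4G36150, chromosome 4, 17104542 to 17108825, plus strand) had 339 reads in *sadr1-30.4* and 443 in *sadr1-26.6*, a log2 ratio of -0.43 (interval -0.63 to -0.22), with 699 in *ADR1-L2 DV* and 383 in Col-0. *SADR1-P1* (AT4G36140, 17098612 to 17104576, minus strand) had 628 reads in *sadr1-30.4* and 653 in *sadr1-26.6* (-0.10, interval -0.26 to 0.06), with 1075 in *ADR1-L2 DV* and 632 in Col-0. Missense changes leave the transcript in place, so these levels do not check the genotype labels. The annotated 5' ends of both genes overlap, and the strand setting of the counts is not given in the sources used here. Among 15 counted TNL and TIR receptor genes 0 were called, with a median log2 ratio of 0.0017, and among 8 counted coiled-coil NLR genes 0 were called, with a median of -0.06. As 1.91% of all counted genes were called, 0 calls do not set lists this short apart.

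Nearly all salicylic acid genes had ratios below 0, and those called were lower in *sadr1-30.4*. Of 23 counted genes that make, sense or regulate salicylic acid and pipecolate, 22 had a log2 ratio below 0, 5 were called lower (21.7%) and 0 higher, with a median of -0.58. Over all counted genes 1.07% were called lower, 0.838% were called higher and 50.3% had a ratio below 0. *WRKY62*, a transcription factor gene induced by salicylic acid, had 27 reads in *sadr1-30.4* and 124 in *sadr1-26.6* (log2 ratio -2.20, interval -2.90 to -1.63), with 313 in *ADR1-L2 DV* and 35 in Col-0. *ALD1*, which makes the precursor of pipecolate, had 135 reads in *sadr1-30.4* and 541 in *sadr1-26.6* (-2.03, interval -2.33 to -1.77), with 505 in *ADR1-L2 DV* and 670 in Col-0. Here *sadr1-26.6* was close to Col-0 and *sadr1-30.4* stood apart from all 3 other genotypes. *UGT76B1*, whose product glucosylates salicylic acid and N-hydroxypipecolate, had 44 reads in *sadr1-30.4* and 136 in *sadr1-26.6* (-1.65), with 87 in *ADR1-L2 DV* and 385 in Col-0. *FMO1*, which hydroxylates pipecolate, had 24 reads in *sadr1-30.4* and 51 in *sadr1-26.6* (-1.10, interval -1.89 to -0.40), with 533 in *ADR1-L2 DV* and 277 in Col-0, and its call was lost at a pseudocount of 5. The last called member, *WRKY38*, falls outside the naming rule and was chosen after its values were seen. It had 284 reads in *sadr1-30.4* and 587 in *sadr1-26.6* (-1.08), with 1575 in *ADR1-L2 DV* and 130 in Col-0.

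The genes that respond to salicylic acid had a similar median, -0.59, over 11 counted members, of which 4 were called lower (36.4%) and 0 higher, beside 1.07% and 0.838% of all counted genes. *PR1*, the standard marker of salicylic acid signalling, on chromosome 2 at 6241640 to 6242541, had 2005 reads in *sadr1-30.4* and 5947 in *sadr1-26.6* (log2 ratio -1.61, interval -1.68 to -1.54). *ADR1-L2 DV* had 24106 *PR1* reads and Col-0 had 11475, so both alleles lay below the wild type for this gene. *SAG13* had 219 reads in *sadr1-30.4* and 504 in *sadr1-26.6* (-1.24), with 6112 in *ADR1-L2 DV* and 819 in Col-0, again below Col-0 in both alleles. *AIG1*, which encodes a GTP-binding protein first found through induction by a bacterial effector, had 1473 reads in *sadr1-30.4* and 3172 in *sadr1-26.6* (-1.15), with 12572 in *ADR1-L2 DV* and 2637 in Col-0. *GRXS13*, a glutaredoxin gene, had 120 reads in *sadr1-30.4* and 238 in *sadr1-26.6* (-1.02), with 836 in *ADR1-L2 DV* and 162 in Col-0, a call that was lost at a pseudocount of 5. Not all output genes shared this direction, and *PR2* and *PR5*, chosen after their values were seen, had log2 ratios of 0.51 and 0.21. *PR2* (*BGL2*), a glucanase gene, had 11159 reads in *sadr1-30.4* and 7621 in *sadr1-26.6*.

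Calcium genes called between the alleles encode a pump, an exchanger and a calmodulin-like protein, all lower in *sadr1-30.4*. Of 21 counted members 3 were called lower (14.3%) and 0 higher, beside 1.07% and 0.838% of all counted genes, with a median of -0.21. *ACA13* (AT3G22910), a calcium pump gene, had 188 reads in *sadr1-30.4* and 766 in *sadr1-26.6* (log2 ratio -2.06, interval -2.30 to -1.83), with 1699 in *ADR1-L2 DV* and 266 in Col-0. *CAX3*, a vacuolar calcium exchanger gene, had 333 reads in *sadr1-30.4* and 896 in *sadr1-26.6* (-1.47), with 7357 in *ADR1-L2 DV* and 743 in Col-0. *CML41*, a calmodulin-like gene of plasmodesmata, had 155 reads in *sadr1-30.4* and 335 in *sadr1-26.6* (-1.15), with 2191 in *ADR1-L2 DV* and 72 in Col-0. *CML41* thus stayed above Col-0 in both alleles, whereas *ACA13* and *CAX3* had the Col-0 value between both alleles. Pattern receptor signalling genes (19 counted, median -0.26) and cysteine-rich receptor-like kinase genes (26 counted, median -0.16) had 0 called members, where 1.91% of all counted genes were called.

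Senescence and sugar starvation genes held the smallest ratios of the lists. Leaf senescence genes had a median log2 ratio of -0.35 over 15 counted members, 4 of them called lower (26.7%) and 0 higher, beside 1.07% and 0.838% of all counted genes. All 4 encode NAC transcription factors. *NAC6* (AT5G39610, also called *ORE1* or *NAC092*), a driver of leaf senescence, had 10 reads in *sadr1-30.4* and 70 in *sadr1-26.6* (-2.73, interval -3.97 to -1.88), with 218 in *ADR1-L2 DV* and 14 in Col-0. *NAC019*, a stress-related NAC gene, had 32 reads in *sadr1-30.4* and 114 in *sadr1-26.6* (-1.84), with 510 in *ADR1-L2 DV* and 23 in Col-0. *NAP*, another senescence regulator, had 113 reads in *sadr1-30.4* and 250 in *sadr1-26.6* (-1.18), with 1143 in *ADR1-L2 DV* and 154 in Col-0. *NAC3* (AT3G29035, also called *NAC059*) had 30 reads in *sadr1-30.4* and 66 in *sadr1-26.6* (-1.15), with 212 in *ADR1-L2 DV* and 6 in Col-0. In *sadr1-26.6* these 4 genes were all above Col-0, while in *sadr1-30.4* 2 of them, *NAC6* and *NAP*, had fewer reads than Col-0. The chlorophyll breakdown genes *SGR1*, *PPH*, *NYC1* and *PAO* of the same list, chosen after their values were seen, were close to equal, with log2 ratios of -0.12, -0.16, -0.0042 and 0.04.

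The sugar starvation and dark-induced list comprises genes that leaves express when carbohydrate runs short, many of them serving amino acid breakdown and nitrogen storage. Of 22 counted members 6 were called lower (27.3%) and 0 higher, beside 1.07% and 0.838% of all counted genes. A ratio below 0 was seen in 20 of them, and the median was -0.46. *ASN1*, an asparagine synthetase gene on chromosome 3 at 17437840 to 17441431, had 262 reads in *sadr1-30.4* and 1614 in *sadr1-26.6*, with 4389 in *ADR1-L2 DV* and 369 in Col-0. Its log2 ratio was -2.66 (interval -2.86 to -2.47), with *sadr1-30.4* near Col-0 and *sadr1-26.6* between Col-0 and *ADR1-L2 DV*. *SEN1*, a dark-inducible gene, followed with 79 reads in *sadr1-30.4* and 347 in *sadr1-26.6* (-2.16, interval -2.55 to -1.82), and it had 1045 reads in *ADR1-L2 DV* and 165 in Col-0. *BCAT-2*, a branched-chain aminotransferase gene, had 24 reads in *sadr1-30.4* and 81 in *sadr1-26.6* (-1.75), with 338 in *ADR1-L2 DV* and 55 in Col-0. *DIN10*, of the raffinose synthase family, had 377 reads in *sadr1-30.4* and 949 in *sadr1-26.6* (-1.37), with 1596 in *ADR1-L2 DV* and 345 in Col-0. The remaining called members, *EXL2* (243 reads in *sadr1-30.4* and 601 in *sadr1-26.6*) and *DYL1* (289 reads in *sadr1-30.4* and 585 in *sadr1-26.6*), fall outside the naming rule and were chosen after their values were seen. The enzyme of lysine breakdown encoded by AT4G33150, lysine-ketoglutarate reductase/saccharopine dehydrogenase, is not in the list but was among the 15 smallest ratios, at 66 reads in *sadr1-30.4* and 359 in *sadr1-26.6* (-2.47, interval -2.88 to -2.10), with 2685 in *ADR1-L2 DV* and 70 in Col-0.

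The 250 bases upstream of the annotated start of the 6 called starvation genes were searched for ACGTG, the core of elements bound by bZIP factors, and for TATCCA, an element described in sugar-repressed promoters, on both strands. The promoters of *ASN1*, *BCAT-2* and *DIN10* held ACGTG, and that of *ASN1* also held TATCCA, while those of *SEN1*, *EXL2* and *DYL1* held neither. The 3 promoters shown are those of the 6 that held ACGTG. They were read from the TAIR10.1 genome and run 5' to 3' on the strand of the gene, with matches to ACGTG or TATCCA on either strand in capitals.
*ASN1* (chr3:17441432-17441681, minus strand): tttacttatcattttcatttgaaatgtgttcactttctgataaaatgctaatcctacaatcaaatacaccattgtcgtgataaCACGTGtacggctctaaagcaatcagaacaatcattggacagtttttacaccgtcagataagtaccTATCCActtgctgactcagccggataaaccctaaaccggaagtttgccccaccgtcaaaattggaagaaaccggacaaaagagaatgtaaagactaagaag
*BCAT-2* (chr1:3287837-3288086, plus strand): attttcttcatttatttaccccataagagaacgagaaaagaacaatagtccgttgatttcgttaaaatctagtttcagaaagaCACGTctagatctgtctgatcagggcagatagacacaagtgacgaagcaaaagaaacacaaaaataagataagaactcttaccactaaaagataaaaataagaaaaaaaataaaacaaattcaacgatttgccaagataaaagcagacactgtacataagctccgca
*DIN10* (chr5:6833314-6833563, plus strand): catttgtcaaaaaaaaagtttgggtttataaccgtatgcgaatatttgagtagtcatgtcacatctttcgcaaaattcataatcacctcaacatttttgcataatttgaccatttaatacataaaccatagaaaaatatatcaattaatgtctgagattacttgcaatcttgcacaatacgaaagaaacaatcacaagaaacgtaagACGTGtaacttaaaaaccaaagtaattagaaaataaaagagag
The match in *ASN1* is palindromic, CACGTG, and therefore counts on both strands.

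Over all called genes, ACGTG was found in 36.0% of 164 promoters of genes lower in *sadr1-30.4* and in 31.5% of 127 promoters of genes higher, and in 3604 of all 15332 promoters of the same length. The longer CACGTG, which contains ACGTG, was found in 7.93% of the lower set, 7.09% of the higher set and 7.61% of all promoters. TTGAC, the core of WRKY binding sites, was found in 51.8% of the lower set and 47.2% of the higher set, with 44.4% of all promoters. In the 94 promoters of genes that were lower in *sadr1-30.4* and at least 2-fold higher in *ADR1-L2 DV* than in Col-0, TTGAC was found in 60.6%. TGACG, which overlaps TTGAC in TTGACG, was found in 25% of the lower and 21.3% of the higher set, with 19.6% of all promoters. TATCCA was found in 16.5% of the lower and 13.4% of the higher set, with 14.5% of all promoters. GTAC, the core of copper response elements, was found in 37.2% of the lower and 33.9% of the higher set, with 34.4% of all promoters. These shares describe letters in the windows and were not tested.

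The difference between the alleles ran along the response to *ADR1-L2 DV*. For the ratio of *ADR1-L2 DV* to Col-0, these 2 genotypes were scaled to each other by the median of ratios (log2 offset 0.29). The ratio of *ADR1-L2 DV* to Col-0 shares no sample with the ratio of the alleles, and over 12079 genes with at least 200 scaled reads in the highest genotype the 2 log2 ratios had a Pearson r of -0.42 and a Spearman rho of -0.42, as a description across genes, which are not independent replicates. Without the called genes r was -0.40 over 11918 genes. The 727 counted genes at least 2-fold higher in *ADR1-L2 DV* than in Col-0 (4.72%) had a median log2 ratio of -0.35, and 82.1% of them were below 0. Of these genes 95 were called lower in *sadr1-30.4* (13.1%) and 8 higher (1.1%), beside 1.07% and 0.838% of all counted genes. The 970 genes at least 2-fold lower in *ADR1-L2 DV* (6.3%) had a median of 0.24, with 52 called higher (5.36%) and 11 lower (1.13%). Among the 13691 genes less than 2-fold apart between *ADR1-L2 DV* and Col-0, 69 were called higher and 59 lower, with a median of -0.0017. The 2-fold responsive genes made up 64.2% of the genes called lower and 46.5% of those called higher. The medians were ordered over 10 bins of the *ADR1-L2 DV* ratio, with 0.65 over the 49 genes at or below a log2 ratio of -3 and -1.19 over the 29 genes above 3.

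**Figure D2:**
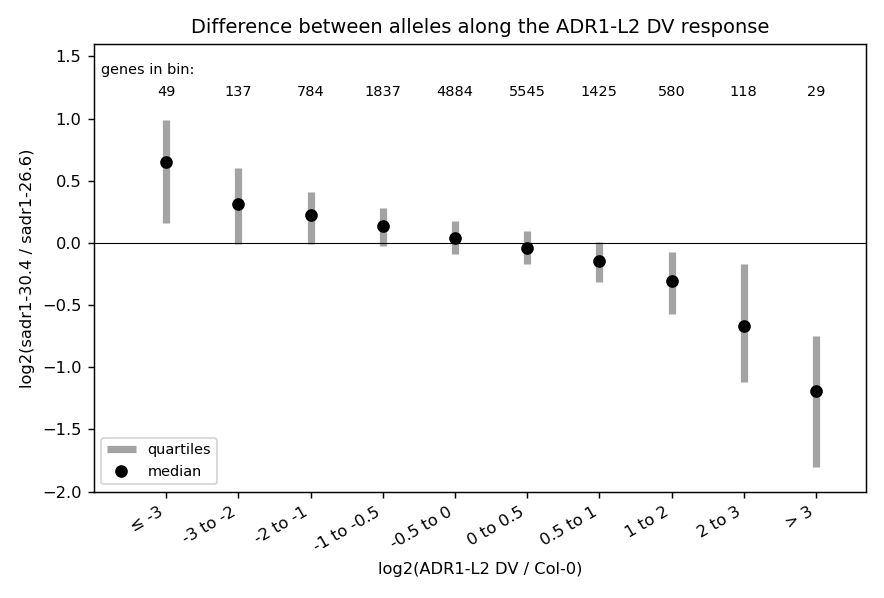
Median (points) and quartiles (bars) of log2(*sadr1-30.4*/*sadr1-26.6*) in 10 bins of log2(*ADR1-L2 DV*/Col-0), for the 15388 counted genes, with the number of genes in each bin above it. The median lies at 0.65 in the leftmost bin and at -1.19 in the rightmost.

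Over all called genes Col-0 was more often near *sadr1-30.4* than near *sadr1-26.6*. Of the 165 genes lower in *sadr1-30.4*, Col-0 was nearer to *sadr1-30.4* on the log2 scale for 101 (61.2%, Clopper-Pearson interval 53.3 to 68.7, which treats genes as independent), and of the 129 genes higher in *sadr1-30.4* for 87 (67.4%, interval 58.6 to 75.4). The share differed between classes of the *ADR1-L2 DV* response, which use the same pooled Col-0 value, so that these counts are a description. Among lower genes, Col-0 was nearer to *sadr1-30.4* for 63 of the 95 that were 2-fold higher in *ADR1-L2 DV*, for 35 of the 59 less than 2-fold apart and for 3 of the 11 that were 2-fold lower. Among higher genes, it was nearer to *sadr1-30.4* for 42 of the 52 that were 2-fold lower in *ADR1-L2 DV*, for 42 of the 69 less than 2-fold apart and for 3 of the 8 that were 2-fold higher. The Col-0 value lay between both alleles for 79 of the 165 lower genes and for 94 of the 129 higher genes.

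**Figure D3:**
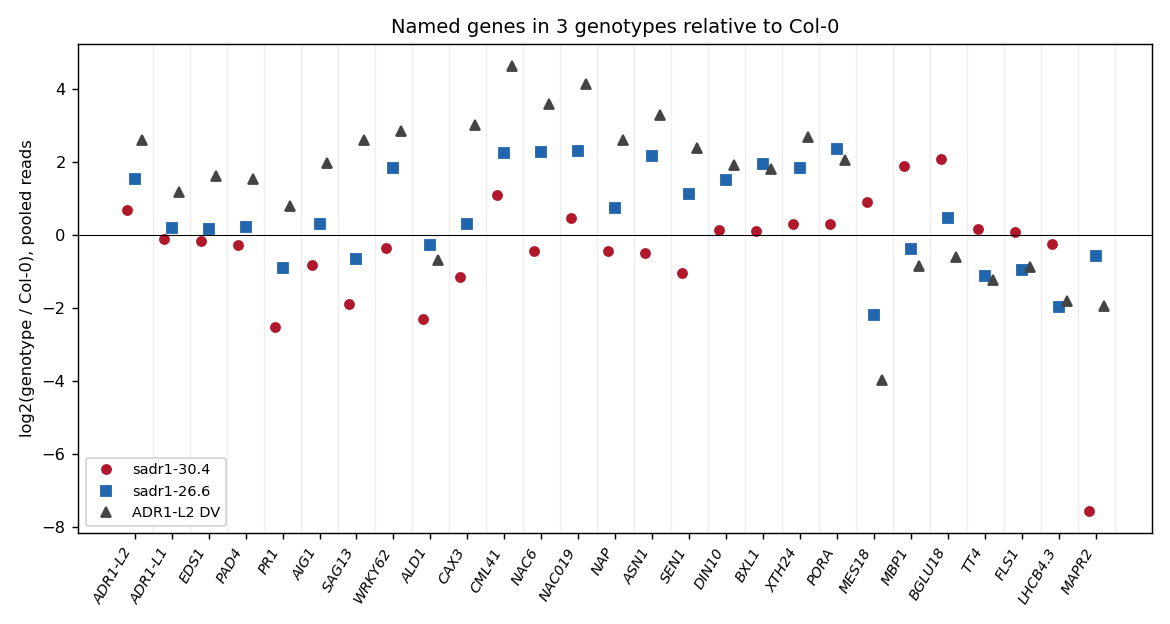
Log2 ratio to Col-0 of pooled reads in *sadr1-30.4* (circles), *sadr1-26.6* (squares) and *ADR1-L2 DV* (triangles) for 27 named genes. The same pooled Col-0 reads enter all 3 ratios, scaled to *ADR1-L2 DV* for the triangles and to the mean of both suppressor lines for the others. For *ASN1*, *NAC6* and *WRKY62* the square lies between the triangle and 0 and the circle below 0, and for *PR1* both alleles lie below 0.

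Genes higher in *sadr1-30.4* included myrosinase-binding lectin genes and 1 member of the aliphatic glucosinolate list, beside genes of other families. *MES18*, of the methyl esterase family, had the largest ratio among genes with at least 200 scaled reads, at 532 reads in *sadr1-30.4* and 59 in *sadr1-26.6* (log2 ratio 3.11, interval 2.74 to 3.55), with 21 in *ADR1-L2 DV* and 284 in Col-0. *MBP1*, a myrosinase-binding lectin gene, had 1111 reads in *sadr1-30.4* and 221 in *sadr1-26.6* (2.28, interval 2.08 to 2.50), with 203 in *ADR1-L2 DV* and 300 in Col-0, so *sadr1-30.4* stood above the 3 other genotypes. Its neighbours *MBP2* (54 reads in *sadr1-30.4* and 24 in *sadr1-26.6*, 1.1) and AT1G52000, a mannose-binding lectin gene (2238 reads in *sadr1-30.4* and 745 in *sadr1-26.6*, 1.55), were also called higher and form a run of 3 called genes on chromosome 1 at 19333088 to 19352791, although the call of *MBP2* was lost at a pseudocount of 5. *MBP1* and *MBP2* are similar in sequence, and how reads shared between such copies were counted is not given in the sources used here. *BGLU18*, a beta-glucosidase gene of stress-induced ER bodies, had 6679 reads in *sadr1-30.4* and 2154 in *sadr1-26.6* (1.59, interval 1.52 to 1.66), with 1272 in *ADR1-L2 DV* and 1594 in Col-0. All 17 counted aliphatic glucosinolate genes had a ratio above 0, with a median of 0.38, where 49.7% of all counted genes had a ratio above 0. The 1 called member (5.88%, beside 0.838% of all counted genes called higher) was *IMS2* (the list's *MAM3*). It had 151 reads in *sadr1-30.4* and 52 in *sadr1-26.6* (1.48), with 165 in *ADR1-L2 DV* and 98 in Col-0. *FMO GS-OX2*, an S-oxygenase gene of aliphatic glucosinolates that is not in the list, was called lower, at 62 reads in *sadr1-30.4* and 250 in *sadr1-26.6* (-2.03), with 83 in *ADR1-L2 DV* and 70 in Col-0. The indole glucosinolate and camalexin list had 13 counted members with a median of -0.09 and 1 called lower (7.69%, beside 1.07% of all counted genes). This was *PAD3*, the last enzyme of camalexin synthesis, at 93 reads in *sadr1-30.4* and 207 in *sadr1-26.6* (-1.19), with 379 in *ADR1-L2 DV* and 622 in Col-0.

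Flavonoid genes called between the alleles were higher in *sadr1-30.4*. Of 9 counted members 2 were called higher (22.2%) and 0 lower, beside 0.838% and 1.07% of all counted genes. A ratio above 0 was seen in 7 of them, and the median was 0.25. *TT4*, chalcone synthase, the first enzyme of the pathway, had 4224 reads in *sadr1-30.4* and 1661 in *sadr1-26.6* (log2 ratio 1.31, interval 1.22 to 1.39), with 1933 in *ADR1-L2 DV* and 3756 in Col-0. *FLS1*, flavonol synthase, had 763 reads in *sadr1-30.4* and 359 in *sadr1-26.6* (1.05, interval 0.86 to 1.23), with 480 in *ADR1-L2 DV* and 723 in Col-0. For both genes *sadr1-30.4* was near Col-0 and *sadr1-26.6* near *ADR1-L2 DV*. *LHCB4.3*, a minor antenna gene, showed the same order with 1008 reads in *sadr1-30.4* and 297 in *sadr1-26.6* (1.72), next to 417 in *ADR1-L2 DV* and 1194 in Col-0. The list of 38 antenna, photosystem and Calvin cycle genes had 0 called members and a median of -0.04, where 1.91% of all counted genes were called. In the jasmonate list, of 26 counted members, *BGLU18* and *AOC1*, an allene oxide cyclase gene with 1545 reads in *sadr1-30.4* and 727 in *sadr1-26.6* (1.05), were called higher (7.69%) and 0 lower. The shares over all counted genes were 0.838% and 1.07%, and the list median was -0.09.

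The other genes among the 15 largest ratios had log2 ratios of 1.57 to 2.19. *AMY1*, an alpha-amylase gene, had 209 reads in *sadr1-30.4* and 48 in *sadr1-26.6* (2.06), but it was highest in *ADR1-L2 DV*, with 1439 reads next to 200 in Col-0. AT3G24460, a serinc-domain gene, had 651 reads in *sadr1-30.4* and 138 in *sadr1-26.6* (2.19), with 33 in *ADR1-L2 DV* and 396 in Col-0. *MLP28*, a major latex-like protein gene, had 916 reads in *sadr1-30.4* and 288 in *sadr1-26.6* (1.63), with 225 in *ADR1-L2 DV* and 829 in Col-0, and *GSL04*, a glucan synthase-like gene, had 479 reads in *sadr1-30.4* and 154 in *sadr1-26.6* (1.59), with 82 in *ADR1-L2 DV* and 302 in Col-0. *PP2-B1*, a phloem protein 2 gene, had 665 reads in *sadr1-30.4* and 194 in *sadr1-26.6* (1.73), with 215 in *ADR1-L2 DV* and 282 in Col-0. The pectin lyase-like gene AT1G60590 had 1036 reads in *sadr1-30.4* and 299 in *sadr1-26.6* (1.75), the F-box gene AT1G25150 had 362 reads in *sadr1-30.4* and 98 in *sadr1-26.6* (1.83), the TRAF-like gene AT4G01390 had 420 reads in *sadr1-30.4* and 124 in *sadr1-26.6* (1.71), the extensin-family gene AT5G15780 had 895 reads in *sadr1-30.4* and 235 in *sadr1-26.6* (1.88), and the hydroxyproline-rich glycoprotein gene AT4G37130 had 295 reads in *sadr1-30.4* and 96 in *sadr1-26.6* (1.57). AT5G15780 had 961 reads in *ADR1-L2 DV* and 592 in Col-0, and AT4G37130 had 311 in *ADR1-L2 DV* and 241 in Col-0. AT1G60590, AT1G25150 and AT4G01390 had fewer reads in *ADR1-L2 DV* than in Col-0.

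**Figure D4:**
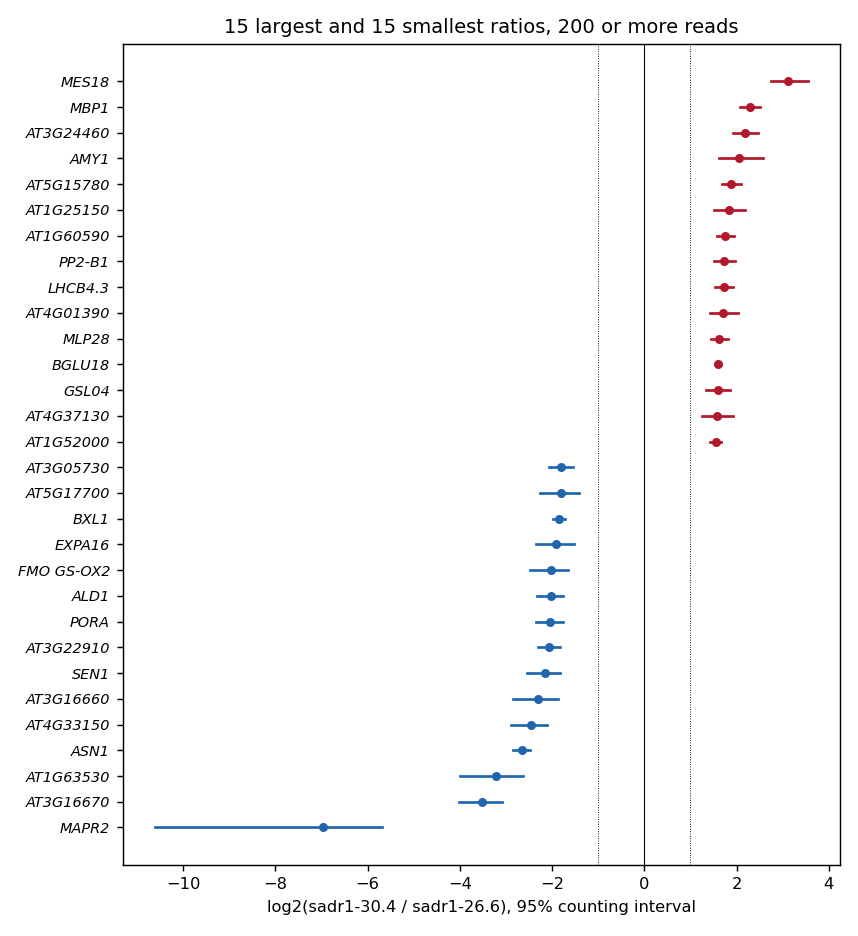
Log2(*sadr1-30.4*/*sadr1-26.6*) of the 15 largest and 15 smallest ratios among called genes with at least 200 scaled reads in the higher allele, with 95% counting intervals as lines and the 2-fold limits dotted. Ratios run from 3.11 for *MES18* to -6.97 for *MAPR2*, whose interval is the widest because *sadr1-30.4* had 2 reads.

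The smallest ratio belonged to *MAPR2*, a gene for a membrane-associated progesterone binding protein on chromosome 2 at 10609417 to 10609900. *MAPR2* had 2 reads in *sadr1-30.4* and 366 in *sadr1-26.6* (log2 ratio -6.97, interval -10.61 to -5.69), with 178 in *ADR1-L2 DV* and 565 in Col-0. It was nearly silent in *sadr1-30.4* alone of the 4 genotypes. Neighbours, 3 on either side, were taken among genes with both a value and an annotated position, and were chosen after their values were seen. The next such gene downstream, AT2G24945, had 1738 reads in *sadr1-30.4* and 1349 in *sadr1-26.6* (0.33). AT2G24960 had 86 reads in *sadr1-30.4* and 106 in *sadr1-26.6* (-0.34), and AT2G24860 had 537 reads in *sadr1-30.4* and 529 in *sadr1-26.6* (-0.02). The other 3 had at most 3 reads in either allele. AT1G63530, an uncharacterized gene, was higher in *sadr1-26.6* alone, with 21 reads in *sadr1-30.4* and 198 in *sadr1-26.6* (-3.22), and with 34 in *ADR1-L2 DV* and 26 in Col-0. *FMO GS-OX2* had the same pattern. No called gene had 0 or 1 read in one allele.

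Cell wall genes stood on both sides. Of 18 counted members of the expansion list, 2 were called lower (11.1%) and 1 higher (5.56%), beside 1.07% and 0.838% of all counted genes, with a median of 0.09. *XTH24*, a xyloglucan-modifying enzyme gene, had 841 reads in *sadr1-30.4* and 2373 in *sadr1-26.6* (log2 ratio -1.54, interval -1.65 to -1.42), with 5378 in *ADR1-L2 DV* and 688 in Col-0, and *XTH25* had 46 reads in *sadr1-30.4* and 100 in *sadr1-26.6* (-1.14), with 232 in *ADR1-L2 DV* and 30 in Col-0. *EXPA10*, an expansin gene, had 185 reads in *sadr1-30.4* and 73 in *sadr1-26.6* (1.29), with 127 in *ADR1-L2 DV* and 131 in Col-0. Outside the list, the expansin gene *EXPA16* had 64 reads in *sadr1-30.4* and 237 in *sadr1-26.6* (-1.91), with 82 in *ADR1-L2 DV* and 129 in Col-0. *BXL1*, a beta-xylosidase gene also known to be induced by sugar starvation, had 644 reads in *sadr1-30.4* and 2269 in *sadr1-26.6* (-1.86, interval -1.99 to -1.73), with 2599 in *ADR1-L2 DV* and 602 in Col-0. The Ole e 1 and extensin family genes AT3G16670 (43 reads in *sadr1-30.4* and 487 in *sadr1-26.6*, -3.51) and AT3G16660 (43 reads in *sadr1-30.4* and 212 in *sadr1-26.6*, -2.31) are neighbours on chromosome 3. AT3G16670 had 791 reads in *ADR1-L2 DV* and 41 in Col-0, and AT3G16660 had 568 in *ADR1-L2 DV* and 78 in Col-0.

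Called abscisic acid genes were mostly lower in *sadr1-30.4*. Of 19 counted members 4 were called lower (21.1%) and 1 higher (5.26%), beside 1.07% and 0.838% of all counted genes, with a median of -0.38. *HAI1*, a protein phosphatase gene induced by abscisic acid, had 31 reads in *sadr1-30.4* and 120 in *sadr1-26.6* (log2 ratio -1.96), with 455 in *ADR1-L2 DV* and 70 in Col-0. *LTI65*, also called *RD29B*, had 90 reads in *sadr1-30.4* and 288 in *sadr1-26.6* (-1.71), with 153 in *ADR1-L2 DV* and 129 in Col-0, and the dehydrin gene *RAB18* had 496 reads in *sadr1-30.4* and 1144 in *sadr1-26.6* (-1.24), with 480 in *ADR1-L2 DV* and 669 in Col-0. *sadr1-26.6* was thus the highest of the 4 genotypes for *LTI65* and *RAB18*. *HB-7*, a homeobox gene, had 259 reads in *sadr1-30.4* and 506 in *sadr1-26.6* (-1.0), with 988 in *ADR1-L2 DV* and 339 in Col-0, a call lost at a pseudocount of 5 and with upper quartile scaling. *LTP3*, a lipid transfer protein gene, went the other way, with 831 reads in *sadr1-30.4* and 281 in *sadr1-26.6* (1.52), next to 113 in *ADR1-L2 DV* and 122 in Col-0. In the auxin list, of 19 counted members, *GH3.3*, an auxin-conjugating enzyme gene (12 reads in *sadr1-30.4* and 61 in *sadr1-26.6*, -2.29), and *IAA29*, an early response gene (44 reads in *sadr1-30.4* and 132 in *sadr1-26.6*, -1.60), were called lower (10.5%) and 0 higher, again beside 1.07% and 0.838%. *PORA*, the light-repressed protochlorophyllide oxidoreductase gene, had 116 reads in *sadr1-30.4* and 467 in *sadr1-26.6* (-2.04), with 478 in *ADR1-L2 DV* and 94 in Col-0. The remaining genes of the 15 smallest ratios were the transporter gene AT5G17700 (60 reads in *sadr1-30.4* and 208 in *sadr1-26.6*, -1.82) and the defensin-like gene AT3G05730 (155 reads in *sadr1-30.4* and 528 in *sadr1-26.6*, -1.80).

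Called genes were found on every chromosome, with 2.34% of the counted genes called on chromosome 1, 1.39% on chromosome 2, 1.77% on chromosome 3, 1.58% on chromosome 4 and 2.04% on chromosome 5. Among genes with values and annotated positions, neighbours called in the same direction formed 4 groups, 2 of them with at least 3 genes. The longest lies on chromosome 1 at 24984878 to 25007647 and holds *LUP5*, *SVL2*, *SNC4* and AT1G67000, all lower in *sadr1-30.4*. *SVL2*, a glycerophosphodiester phosphodiesterase-like gene, had 5409 reads in *sadr1-30.4* and 13520 in *sadr1-26.6* (log2 ratio -1.36, interval -1.41 to -1.32), with 19753 in *ADR1-L2 DV* and 15048 in Col-0. *SNC4*, a receptor-like kinase gene with a role in immunity, had 1447 reads in *sadr1-30.4* and 3163 in *sadr1-26.6* (-1.17), with 4619 in *ADR1-L2 DV* and 3112 in Col-0. For both genes *sadr1-26.6* was close to Col-0 and *sadr1-30.4* lowest. *LUP5*, a triterpene cyclase gene, had 208 reads in *sadr1-30.4* and 418 in *sadr1-26.6* (-1.04) and the kinase gene AT1G67000 had 98 reads in *sadr1-30.4* and 209 in *sadr1-26.6* (-1.12). The other 2 groups are pairs, *PR1* with *XTH10* on chromosome 2 and AT3G16660 with AT3G16670 on chromosome 3.

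**Figure D5:**
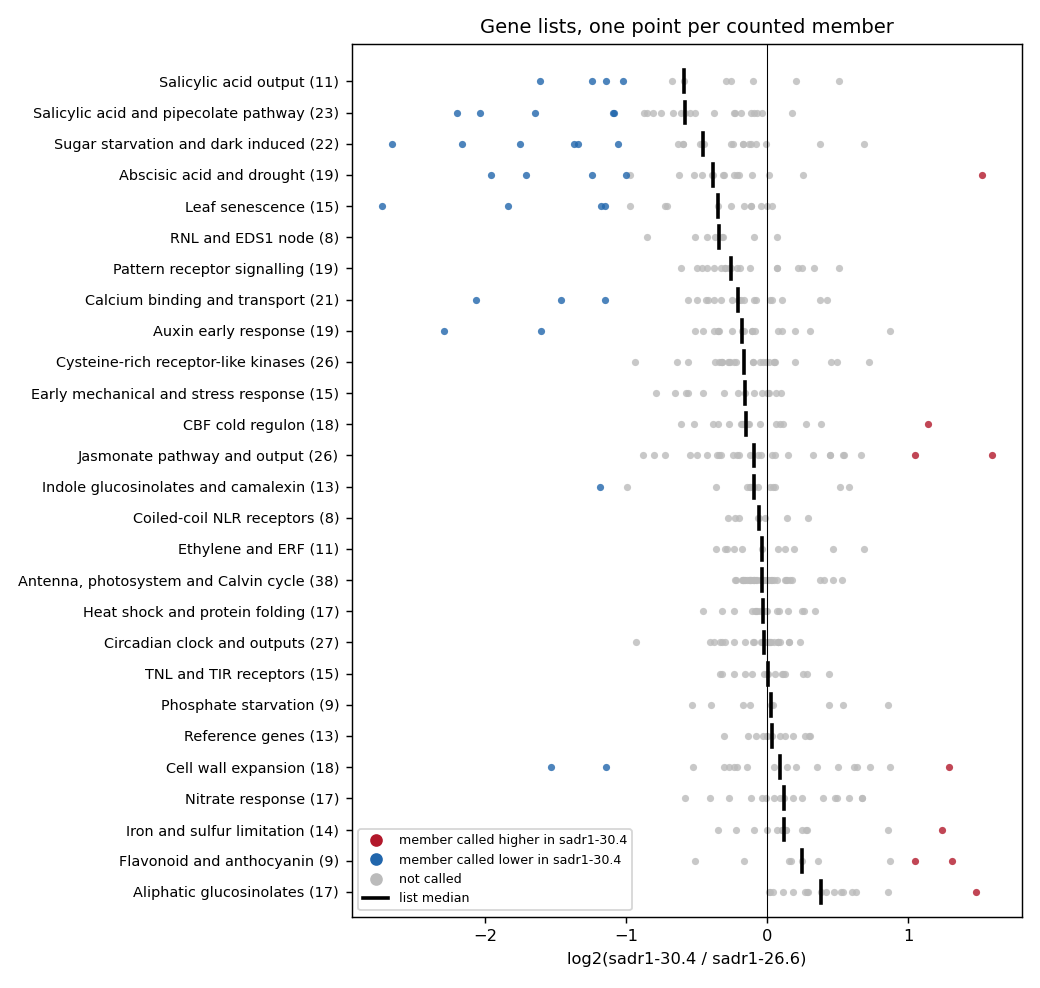
Log2(*sadr1-30.4*/*sadr1-26.6*) of each counted member of the gene lists with at least 8 counted members, 1 row per list, with the number of counted members in brackets and the list median as a bar. The salicylic acid output (-0.59), salicylic acid pathway (-0.58) and sugar starvation (-0.46) lists have the lowest medians, and the aliphatic glucosinolate list (0.38) has the highest.

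The other lists had few called members. The 29 pathway lists, including those described above, held 468 distinct counted genes, of which 9 were called higher and 31 lower. Both shares were larger than those of all counted genes, 0.838% higher and 1.07% lower. The lists were chosen with earlier results of these data known, and this excess was not tested. No member was called in 15 of the lists. The circadian clock list had 0 of 27 counted members called, with a median of -0.02, and the reference gene list had 0 of 13, with a median of 0.03. *RHL41*, a zinc finger gene also called *ZAT12*, was the called member of the 18 counted cold regulon genes (5.56%). Its reads were 112 in *sadr1-30.4* and 49 in *sadr1-26.6* (log2 ratio 1.14). *SULTR4;2*, a vacuolar sulfate exporter gene, was the called member of the 14 counted iron and sulfur genes (7.14%). Its reads were 101 in *sadr1-30.4* and 41 in *sadr1-26.6* (1.24). Among 41 counted markers of leaf cell types and other organs 0 were called. As 1.91% of all counted genes were called, 0 calls do not set the markers, clock or reference genes apart. The 4 counted trichome markers had ratios between -0.997 and 0.987, with 775 reads in *sadr1-30.4* and 517 in *sadr1-26.6* over the list, and the 7 mesophyll markers had a median of 0.05. The part of cell type content in the differences between the alleles was not tested.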

How the data were processed

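Leaf mRNA of 4 genotypes was sequenced, 3 samples each. The deposited table gives 1 whole-number value per gene and genotype. Its headers name RPKM, but the values are whole numbers that sum to a different total in each genotype, so they were treated as counts that the authors pooled over samples. The aligner, counter, strand setting and way of pooling (sum or mean) were not given in the sources used here, and the build, TAIR10, comes from the submitters' processing notes. Columns with the authors' own fold changes and FDR values were not used.

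Counts of the 2 suppressor lines were scaled by the median of ratios and a pseudocount of 1 was added. *ADR1-L2 DV* and Col-0 were scaled to each other in the same way, with a log2 offset of 0.29. For the position of Col-0, its counts were scaled to the mean of both suppressor lines. Reads given in the text are unscaled, so 2-fold classes cannot be read from them directly. Genes with at least 50 scaled reads in the higher allele were counted. Calls required a 2-fold ratio and a 95% Clopper-Pearson interval of the read share that left out equality. With 1 pooled value per genotype no test across samples was run.

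Named genes were *SADR1*, *SADR1-P1*, the RNL and EDS1 node genes and *PR1*, the 15 largest and 15 smallest ratios among called genes with at least 200 scaled reads, up to 4 called members per list and direction, up to 5 called genes per direction with 0 or 1 read in one allele, and runs of at least 3 called neighbours. Members and gene lists were chosen with earlier results of these data known. Gene positions, products and the 250-base promoters came from RefSeq TAIR10.1, which matched 28009 of 28496 genes. Of 767 list symbols 714 matched. Alternatives changed the scaling, pseudocount, read floor, fold and interval rule. Python 3.11.15, numpy 2.4.6, scipy 1.17.1, pandas 2.3.3 and matplotlib 3.10.9 were used.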

Additional observations from a re-analysis of the deposited data

How the results depend on the processing

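With 1 pooled value per genotype, leaving out replicates was not run. No paired analysis was possible because the table holds no value per sample. Against 129 genes higher and 165 lower in *sadr1-30.4*, with 40 list genes called, counts moved with the thresholds. Without a read floor 380 were higher and 335 lower, at 20 reads 275 higher and 254 lower, and at 200 reads 43 higher and 75 lower, with 25 list genes. At 1.5-fold 536 were higher and 517 lower, with 84 list genes, and at 3-fold 36 higher and 53 lower, with 15 list genes. With intervals wholly beyond 2-fold, 49 were higher and 74 lower, with 25 list genes. Other scalings and pseudocounts gave 120 to 131 higher and 148 to 176 lower. The correlation with the *ADR1-L2 DV* ratio stayed between -0.50 and -0.37, and Col-0 was nearer to *sadr1-30.4* for 63.3 to 65.3% of the called genes, beside 63.9%. Under the scaling and pseudocount alternatives, 375 of 375 ratios of the 75 named genes stayed within their counting interval and 0 changed sign, but of 67 named calls 4 fell short of 2-fold at a pseudocount of 5, *FMO1* (-0.98), *GRXS13* (-0.998), *HB-7* (-0.99) and *MBP2* (0.99), and *HB-7* (-0.99) also did with upper quartile scaling. Of the 67 calls, 16 were lost at 200 reads, 29 at 3-fold and 16 with the stricter interval. Calls lost with the stricter interval included *NAP*, *NAC3*, *CML41*, *PAD3*, *FLS1* and *AOC1*. At 200 reads, members called lower fell from 4 to 1 in the leaf senescence list and from 2 to 0 in the auxin list. They fell from 5 to 2 in the salicylic acid pathway list. The starvation list kept 5 of 6, the salicylic acid output list 4 of 4 and the calcium list 3 of 3. Depth limits genes with few reads, such as *FMO1* and *NAC6*, to wide counting intervals.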

Other observations

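The genes here were chosen after their values were seen. *CSD2*, the chloroplast copper/zinc superoxide dismutase gene, was called higher in *sadr1-30.4*. It had 3947 reads in *sadr1-30.4* and 1337 in *sadr1-26.6* (log2 ratio 1.52), with 4186 in *ADR1-L2 DV* and 4465 in Col-0, so *sadr1-26.6* was the low genotype. The cytosolic enzyme gene *CSD1* and the copper chaperone gene *CCS* had the same direction but did not reach 2-fold and were not called. *CSD1* had 1892 reads in *sadr1-30.4* and 1267 in *sadr1-26.6* (0.54, interval 0.43 to 0.64), with 3880 in *ADR1-L2 DV* and 2513 in Col-0. *CCS* had 1162 reads in *sadr1-30.4* and 619 in *sadr1-26.6* (0.87, interval 0.73 to 1.01), with 1643 in *ADR1-L2 DV* and 1219 in Col-0. For these genes too *sadr1-26.6* had the fewest reads of the 4 genotypes.

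Single genes of flowering, light signalling and starch breakdown were among those called lower in *sadr1-30.4*. Whether these pathways moved as a whole was not tested. The alpha-amylase gene *AMY1* was called higher (log2 ratio 2.06). Of other light signalling genes, *PIL2* was called lower (-1.37) and *PIF4* was not called (-0.15). *FLC*, a repressor of flowering, had 3 reads in *sadr1-30.4* and 58 in *sadr1-26.6*, with 32 in *ADR1-L2 DV* and 24 in Col-0. *MAF5*, a relative of *FLC*, had 24 reads in *sadr1-30.4* and 54 in *sadr1-26.6* (log2 ratio -1.18), with 20 in *ADR1-L2 DV* and 24 in Col-0. *HFR1*, a gene of light signalling, had 40 reads in *sadr1-30.4* and 94 in *sadr1-26.6* (-1.25), with 76 in *ADR1-L2 DV* and 17 in Col-0. *BAM5*, a beta-amylase gene, had 213 reads in *sadr1-30.4* and 532 in *sadr1-26.6* (-1.36), with 31 in *ADR1-L2 DV* and 39 in Col-0, so both alleles were above the other genotypes.

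*CSLA01*, of the cellulose synthase-like family, had the largest ratio of all called genes, with 117 reads in *sadr1-30.4* and 5 in *sadr1-26.6* (4.26), next to 1 in *ADR1-L2 DV* and 2 in Col-0. *RAN-1*, a small GTPase gene, had 3173 reads in *sadr1-30.4* and 8034 in *sadr1-26.6* (-1.38), with 3472 in *ADR1-L2 DV* and 3525 in Col-0, and its near-identical copies *RAN2* and *RAN3* had ratios of -0.77 and 0.13. How reads shared by these copies were counted is not given in the sources used here.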
